A study of Mus musculus with 6 samples.

Results

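The connexin genes described here are Gja1, Gja3, Gja4, Gja5, Gjb2, Gjc1, Gjc3, Gjd2 and Gjd3, which are 9 of the 46983 genes listed in the count table. They were found by gene name. They had been picked with the mutant and wild type values of these hearts known, so every difference between the groups for these 9 genes is given as a description, with its size and its spread, and not as a test. RNA was sequenced from 6 whole hearts of E13.5 mouse embryos of a C57BL/6 x DBA/2 background, with 1 heart per library. The 3 mutant hearts (replicates 1, 5 and 10) carried the Tnnt2 Cre transgene and floxed Wt1 alleles. The 3 control hearts (replicates 2, 3 and 5) were labelled wild type, and the study's methods give them as embryos without Cre in which both Wt1 alleles were floxed, so the floxed alleles were shared by both groups. The Tnnt2 promoter drives Cre in the cardiomyocyte lineage, and the study also found recombination in part of the epicardium. Wt1 encodes a zinc finger transcription factor that is high in the epicardium. The study also reports it at low levels in a fraction of embryonic cardiomyocytes. The comparison addresses what the loss of Wt1 from the Tnnt2 lineage does to the transcripts of the embryonic heart.

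Connexins are membrane proteins that assemble into hexameric channels, and the docking of channels of neighbouring cells forms the gap junction through which ions and small molecules pass. In the heart they carry the electrical impulse from cell to cell, and their mixture differs between working muscle, the conduction system and the vessels. Gja1 is the main connexin of working ventricular muscle and is also made by fibroblasts and smooth muscle. Gja5 marks the atria, the fast conduction system, the trabeculae of the embryonic ventricle and arterial endothelium. Gjc1 is the connexin of the early heart tube and of the slowly conducting nodes, Gjd3 has been linked to the atrioventricular node in the mouse, and Gja4 is a connexin of arterial endothelium. Gja3 is best known from lens fibres, Gjb2 from epithelia and the inner ear, Gjc3 from myelinating glia, and Gjd2 from neurons and the beta cells of the pancreas.

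Total counts lay between 44244665 and 56373393 per heart. Wt1 itself had 2251, 1891 and 879 counts in wild type hearts 2, 3 and 5 and 921, 1746 and 1796 counts in mutant hearts 1, 5 and 10, so the groups overlapped and the counts over the whole gene did not separate the genotypes. The 8 cardiomyocyte markers examined were detected in the hearts, with summed FPKM (a level scaled by gene length and by library depth) between 17900 and 20700 in the wild type and between 19700 and 20700 in the mutant. Some libraries stood apart. The summed FPKM of 8 hepatocyte markers was 852 in wild type heart 3 and between 2.09 and 23.4 in the other hearts. That of 8 erythroid markers was 58200 in wild type heart 5 and 58300 in mutant heart 10 and between 18100 and 23000 in the other hearts. Wild type heart 5 was also low in Myh7, a slow myosin gene, at 356 FPKM against 797 to 1022 elsewhere, and leaving it out moved the number of genes called by edgeR from 0 to 44. Where leaving out one of these libraries set the range of a member's fold change, its value is given there.

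The sequences before the start sites of the 4 members whose mutant and wild type values did not overlap are shown first, since these are the members the results turn on. They are the RefSeq bases upstream of each start in build GRCm38.p6, written 5′ to 3′ on the strand of the gene. For Gja3, which has more than one RefSeq start, the 180 bases before its first annotated exon in GENCODE M21 are shown. For Gja5, the RefSeq start lies inside the gene, which begins at chr3:96904693 in GENCODE M21. The bases before that upstream end were not searched. Capitals mark matches to the motifs searched. Gjd2 lies on the minus strand (chr2:114013620-114013869), Gja1 on the plus strand (chr10:56377050-56377299), Gja3 on the minus strand (chr14:57058101-57058280) and Gja5 on the plus strand (chr3:97032152-97032401).
Gjd2: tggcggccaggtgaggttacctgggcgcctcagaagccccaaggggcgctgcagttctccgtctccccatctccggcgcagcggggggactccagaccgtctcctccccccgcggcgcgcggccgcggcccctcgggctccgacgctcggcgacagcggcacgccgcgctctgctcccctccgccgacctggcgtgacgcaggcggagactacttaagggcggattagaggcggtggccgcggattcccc
Gja1: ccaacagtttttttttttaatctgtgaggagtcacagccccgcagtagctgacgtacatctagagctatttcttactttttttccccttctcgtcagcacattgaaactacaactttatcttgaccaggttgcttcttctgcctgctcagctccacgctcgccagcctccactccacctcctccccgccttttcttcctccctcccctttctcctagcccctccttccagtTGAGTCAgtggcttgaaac
Gja3: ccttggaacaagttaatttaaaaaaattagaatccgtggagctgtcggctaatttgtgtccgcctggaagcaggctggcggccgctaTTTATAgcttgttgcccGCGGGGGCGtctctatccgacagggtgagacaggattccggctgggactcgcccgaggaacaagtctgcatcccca
Gja5: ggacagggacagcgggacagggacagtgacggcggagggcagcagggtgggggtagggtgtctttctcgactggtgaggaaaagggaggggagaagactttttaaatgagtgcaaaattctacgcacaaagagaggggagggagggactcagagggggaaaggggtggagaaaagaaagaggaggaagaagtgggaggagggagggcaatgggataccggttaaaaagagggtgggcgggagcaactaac

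Motifs, 7 in number, were searched on both strands in the 250 bases before each start. One was GCGGGGGCG, a site type of EGR1 and WT1 found in 2.57% of the 32851 RefSeq promoters. The others were the T-box element AGGTGTGA (1.12%), the NKX2-5 element TNAAGTG (10.1%), the GC box GGGGCGGGG (10.4%), the TATA box TATAAA (12.4%), the AP-1 site TGANTCA (6.75%) and the E-box CACGTG (6.02%). Gja3 held the EGR1 and WT1 type 146 bases, and a TATA box on the opposite strand 163 bases, before the RefSeq start. That start lies 70 bases beyond the end of the stretch shown, so these matches begin 76 and 93 bases before its end. Gja1 held an AP-1 site 19 bases before its start. The Gjd2 and Gja5 windows held none of these letters, and Gjd2 had the higher GC content, at 74.0% against 56.4% for Gja5 and a median of 52.4% over all promoters. A match in such a window is a description of its letters.

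Gjd2, the neuronal connexin, had the largest fold difference of the 7 members tested and one of the lowest levels. Its counts were 0, 7 and 1 in wild type hearts 2, 3 and 5 and 26, 60 and 47 in mutant hearts 1, 5 and 10. All 3 mutant hearts lay above all 3 wild type hearts, with sums of 133 and 8 counts. In FPKM the wild type hearts read 0, 0.0431 and 0.00785 and the mutant hearts 0.177, 0.399 and 0.307. The count of 0 in wild type heart 2 allows up to 3 counts, or 0.0533 CPM (counts scaled to library depth by TMM), and this limit covers counting error only. The fitted log2 fold change, from edgeR on the counts, was 4.04 (SE 0.82), a 16.5-fold difference. Its size rested on the few wild type counts. With wild type heart 3 left out the remaining wild type hearts held 1 count against 133, a ratio of 86.2 with an exact 95% interval of 15.2 to 3430.0 for counting error alone. The fitted log2 fold change was 6.11 without wild type heart 3, the library with the hepatocyte markers. It was 3.76 without wild type heart 5 and 3.98 without mutant heart 10. On the log2(FPKM + 1) scale, which compresses low levels, the difference was 0.34.

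The Gjd2 gene spans chr2:114009601-114013619 on the minus strand of GRCm38. Exons of A530058N18Rik, a noncoding gene on the opposite strand with 2 entries in the table, cover 1.98% of its exon bases for one entry and 0.625% for the other. Whether the counting used strand is not given in the sources used here, which leaves reads on those shared bases uncertain. The entry that reaches further had 4, 3 and 9 counts in wild type hearts 2, 3 and 5 and 6, 1 and 7 counts in mutant hearts 1, 5 and 10. It overlapped between the groups and lay below Gjd2 in each mutant heart. This gene was looked at after the values of Gjd2 were seen. The nearest protein-coding genes on either side did not follow Gjd2. Actc1, the cardiac actin gene 33.7 kb away on the same strand, had a log2 fold change of 0.08 (SE 0.14), and Arhgap11a, a GTPase activating protein gene 161 kb away on the other side, had one of -0.03 (SE 0.20), each with overlapping groups. Wt1 lies on the same chromosome, 8.84 Mb from Gjd2.

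Markers of neurons, which are known for Gjd2, were compared over the same hearts, with lists for neuroendocrine cells and macrophages beside them. No list was made for the beta cells of the pancreas. The summed FPKM of 10 neuronal markers ran from 37.0 to 42.2 in the wild type and from 36.1 to 42.7 in the mutant, so the groups overlapped. Most of each sum was Gap43, at 22.1 to 23.7 against 22.1 to 27.2 FPKM. Of 9 neuronal markers tested, 3 had higher and 6 lower estimates, where 49.8% of all genes were higher. Isl1, which was lower, and Prph did not overlap, beside 11.2% of all genes tested. Prph read 0.347, 0.537 and 0.485 FPKM in the wild type and 0.841, 1.35 and 1.46 FPKM in the mutant. Its log2 fold change was 1.45 (SE 0.33, edgeR adjusted p = 0.385, DESeq2 adjusted p = 0.0122). The sum of 8 neuroendocrine markers was lower in the mutant, at 4.29 to 7.18 against 12.1 to 14.2, and most of it was Calca, a calcitonin gene. Without Calca the sums overlapped, at 0.839 to 1.81 against 1.42 to 1.82. The sum of 8 macrophage markers was higher in the mutant, at 71.0 to 77.4 against 40.0 to 52.5, with 7 of the 8 genes higher. No marker on these lists was at 0 in all hearts. The part of any of these cells in the Gjd2 counts was not tested. In a whole heart, a change in the number of cells of a type and a change in RNA per cell cannot be told apart.

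Gja1, the connexin of working muscle, was the most abundant of the 9 genes on the authors' FPKM scale and was higher in each mutant heart. It read 139, 144 and 117 FPKM in wild type hearts 2, 3 and 5 and 192, 229 and 204 FPKM in mutant hearts 1, 5 and 10. The lowest mutant heart lay well above the highest wild type heart. The group means were 133.3 ± 14.5 FPKM and 208.5 ± 19.1 FPKM (SD, n = 3 each), and the log2 fold change was 0.68 (SE 0.13), a 1.6-fold difference. It stayed between 0.60 (without wild type heart 5) and 0.75 when each heart was left out in turn. Fibroblasts also make Gja1. Of 8 fibroblast and mesenchyme markers, 5 had higher and 3 lower estimates, where 49.8% of all genes tested were higher. Among the collagen genes on that list, Col1a1 and Col1a2 were higher in each mutant heart. Col3a1 overlapped, at 569, 578 and 393 FPKM in the wild type and 550, 665 and 532 FPKM in the mutant. Col1a1 read 367, 398 and 205 FPKM in wild type hearts 2, 3 and 5 and 426, 717 and 681 FPKM in mutant hearts 1, 5 and 10 (edgeR adjusted p = 0.652, DESeq2 adjusted p = 0.0498), and Col1a2 did not overlap either. The sum of the 8 markers was 1140 to 1650 against 1640 to 2290, and without Col1a1 and Col1a2 it was 761 to 958 against 796 to 1080. Tcf21, a fibroblast and epicardial factor on that list, was lower, at 43.8, 36.2 and 46.9 FPKM against 23.3, 18.7 and 16.1 FPKM (edgeR adjusted p = 0.113, DESeq2 adjusted p = 1.6e-07). Smooth muscle and mural markers summed to 834 to 958 against 844 to 962. The part of these cells in the Gja1 level was not tested. The gene lies at chr10:56377330-56402513, and its neighbours Tbc1d32, a gene of ciliary signalling, and Hsf2, a heat shock transcription factor, had log2 fold changes of 0.06 (SE 0.20) and 0.01 (SE 0.09).

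Gja5, the connexin of atria and fast conducting tissue, was the next most abundant. Its levels were 117, 82.4 and 104 FPKM in wild type hearts 2, 3 and 5 and 121, 125 and 118 FPKM in mutant hearts 1, 5 and 10. The groups did not overlap, but the gap between the highest wild type heart and the lowest mutant heart was narrow, and the mutant hearts lay close together. Of its exon bases, 2.87% are shared with Gpr89 on the opposite strand. Means were 101.0 ± 17.3 and 121.1 ± 3.57 FPKM (SD, n = 3 each), and the log2 fold change of 0.29 (SE 0.14) fell to 0.16 without wild type heart 3, the library with the hepatocyte markers. Of 8 atrial markers, which share the tissue of Gja5, 7 had lower estimates in the mutant. Over all genes tested, 49.8% had a higher estimate. None of the 8 had an adjusted p under 0.05 by edgeR or DESeq2. By an unadjusted p under 0.05, edgeR gave 4, all lower, beside 2.59% of all genes counting lower estimates alone. The sums overlapped, with FPKM of 3420 to 4650 in the wild type and 3050 to 3590 in the mutant. A large part of each sum was Pam, the only marker of the 8 with a higher estimate. Pam read 1173, 1006 and 1010 FPKM in the wild type and 1199, 1270 and 1175 FPKM in the mutant. The overlap of the sums is therefore no measure of the other 7. Estimates were higher in the mutant for 8 of 8 ventricular markers, again with none called by an adjusted p. An unadjusted edgeR p under 0.05 was given to 1 of these, beside 3.14% of all genes counting higher estimates alone. The ventricular sums overlapped, at 11000 to 13300 against 12700 to 14000. Sums for 8 arterial endothelial markers were 116 to 140 against 111 to 125. The part of these tissues in the Gja1 and Gja5 levels was not tested.

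Gjc1, the connexin of the heart tube and nodes, had the smallest difference between groups. It read 39.3, 40.2 and 35 FPKM in wild type hearts 2, 3 and 5 and 40.5, 36.9 and 34.1 FPKM in mutant hearts 1, 5 and 10. The values of the groups ran through each other, and the log2 fold change was -0.01 (SE 0.10). With each heart left out, the Gjc1 estimate ran from -0.06, without wild type heart 5, to 0.02, without wild type heart 3 or mutant heart 10. Gja4, the arterial connexin, read 22.7, 19.6 and 19.2 FPKM against 20.8, 20.6 and 23.6 FPKM in the same order of hearts. It too overlapped, with a log2 fold change of 0.11 (SE 0.12) that was 0.01 without mutant heart 10.

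Gja3, the lens fibre connexin, was present at a low level and was higher in the mutant. Its counts were 304, 353 and 379 in wild type hearts 2, 3 and 5 and 465, 518 and 563 in mutant hearts 1, 5 and 10. In FPKM these were 3.54, 4.05 and 5.53 against 5.88, 6.41 and 6.85, so the groups did not overlap but wild type heart 5 lay near mutant heart 1. The log2 fold change was 0.58 (SE 0.20), a 1.49-fold difference, and it ranged from 0.44 to 0.79 with each heart left out, the highest being without wild type heart 5. Gjd3, the atrioventricular node connexin, had the lowest estimate of the 7 members tested. It read 2.84, 3.92 and 4.59 FPKM in wild type hearts 2, 3 and 5 and 2.22, 1.92 and 3.49 FPKM in mutant hearts 1, 5 and 10. Mutant heart 10 lay inside the wild type range, and the log2 fold change of -0.53 (SE 0.31) moved to -0.87 without that heart and to -0.36 without mutant heart 5 or without wild type heart 5.

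Gjb2 and Gjc3 were near the limit of detection and were removed by the filter on low counts. Gjb2 had 7, 48 and 3 counts in wild type hearts 2, 3 and 5 and 7, 0 and 12 counts in mutant hearts 1, 5 and 10, and most of the wild type counts came from the library with the hepatocyte markers. Gjc3 had 0, 10 and 0 counts against 2, 3 and 0 counts, and again wild type heart 3 was the highest.

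**Figure D1:**
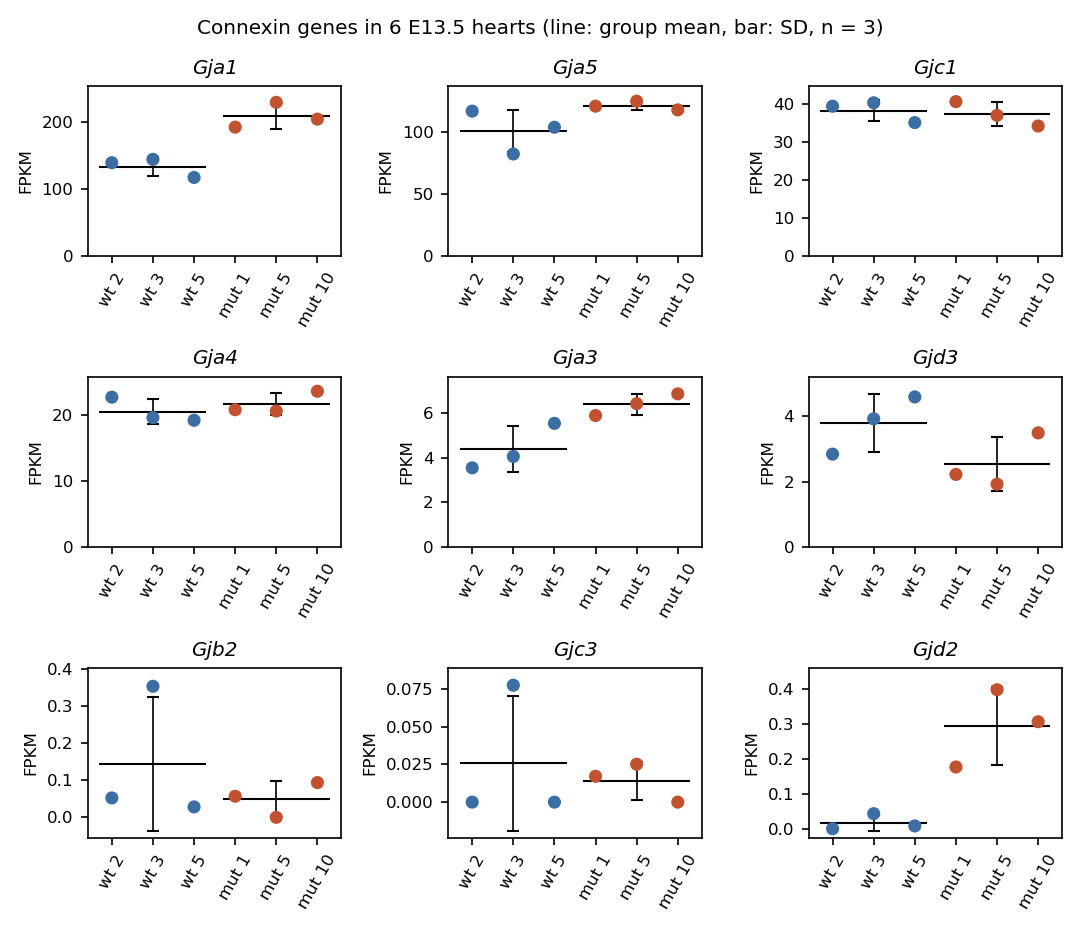
FPKM of the 9 connexin genes in each heart, with wild type hearts in blue and mutant hearts in orange, a line at each group mean and a bar for the SD (n = 3). Mutant values lie above all wild type values for Gja1, Gja3, Gja5 and Gjd2 and overlap for the other 5 genes, and each panel has its own axis.

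Of the 9 members, 7 passed the filter on low counts, 5 of them with a higher and 2 with a lower estimate in the mutant, where 49.8% of all genes tested had a higher estimate. Their median log2 fold change was 0.29, beside 0.00 over all 17473 genes tested. Values did not overlap between the groups for 4 members, each higher in the mutant. Over all genes tested, 11.2% did not overlap, and 6.61% were higher in the mutant without overlap. The quasi-likelihood test of edgeR, Benjamini-Hochberg adjusted, gave no member and no gene at all an adjusted p under 0.05 (background 0%), and the smallest adjusted p over all genes was 0.0991. An unadjusted p under 0.05 was given to 3 members (Gja1, Gja3 and Gjd2), beside 5.73% of all genes and 3.14% counting higher estimates alone. DESeq2 gave 2 members, Gja1 and Gjd2, an adjusted p under 0.05, beside 0.69% of its 19282 genes and 0.405% counting higher estimates alone. Since the members were chosen on this contrast, nothing further is read from these counts.

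**Figure D2:**
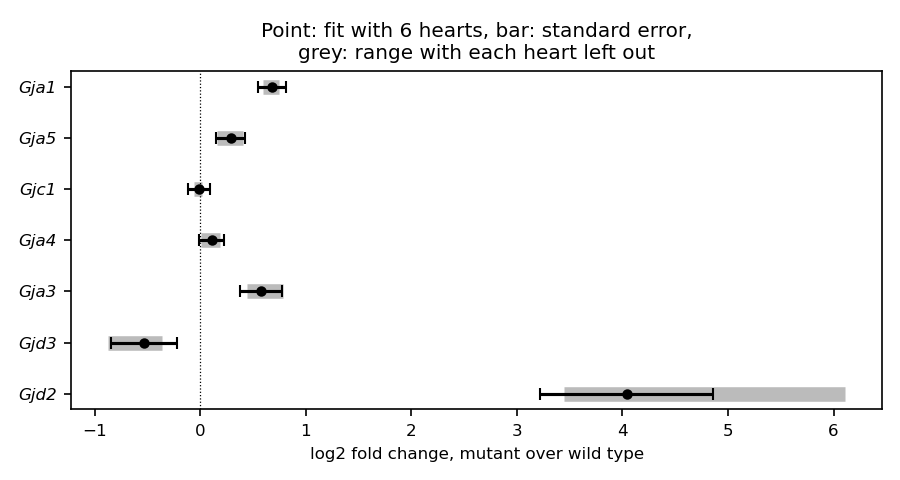
Log2 fold changes (mutant over wild type) of the 7 members tested, with points for the fit to 6 hearts, black bars for the standard error and grey bars for the range with each heart left out in turn. Gjd2 stands far to the right at 4.04 with the widest range, 3.45 to 6.11, while Gjc1 and Gja4 lie near 0.

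The connexin transcript pool was then described as each gene's share of the summed FPKM of the 9 members in a heart. The summed level itself was 323.9, 295.1 and 285.0 FPKM in wild type hearts 2, 3 and 5 and 382.2, 420.4 and 390.6 FPKM in mutant hearts 1, 5 and 10. Most of that difference lay in Gja1. Without it, the sum was 168 ± 17.2 FPKM in the wild type and 189 ± 2.68 FPKM in the mutant (SD, n = 3 each).

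Gja1 made up 42.8%, 48.9% and 41.0% of the pool in wild type hearts 2, 3 and 5 and 50.2%, 54.5% and 52.3% in mutant hearts 1, 5 and 10. The groups did not overlap, and the mean share was 8.09 percentage points higher in the mutant. The share of Gjc1 was lower, at 12.7% ± 0.828 in the wild type and 9.37% ± 1.06 in the mutant (SD, n = 3 each), although its level hardly differed. The share of Gja4 was also lower without overlap, at 6.80% ± 0.183 against 5.46% ± 0.572. The shares of Gja5 overlapped, at 33.5% ± 4.80 against 30.5% ± 0.996. Gjd2 took 0.0733% of the mutant pool on average.

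The ratio of Gja1 to Gjc1, the working muscle against the nodal connexin, was 3.532, 3.589 and 3.339 in wild type hearts 2, 3 and 5 and 4.734, 6.213 and 5.992 in mutant hearts 1, 5 and 10. These did not overlap. The ratio of Gja1 to Gja5 was 1.188, 1.752 and 1.127 against 1.588, 1.837 and 1.737, and here wild type heart 3 lay among the mutant hearts.

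The order of the levels depends on the gene length used, since the length implied by the FPKM values is shorter than the summed exons of GENCODE M21 for several members (3105 against 10257 bases for Gja1, 1953 against 5003 bases for Gjc1). On the authors' lengths the wild type order was Gja1, Gja5, Gjc1, Gja4, Gja3 and Gjd3, with the last 2 within their spread and Gja1 above Gja5 in each heart. With the exon lengths, the wild type level of Gja1 was 40.4 ± 4.39 and that of Gja5 was 42.1 ± 7.23 (SD, n = 3 each), which lie within their spread. Gja4 (20.5 ± 1.90) then came above Gjc1 (14.9 ± 1.09). The difference in the Gja1 share was 7.85 points with these lengths.

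**Figure D3:**
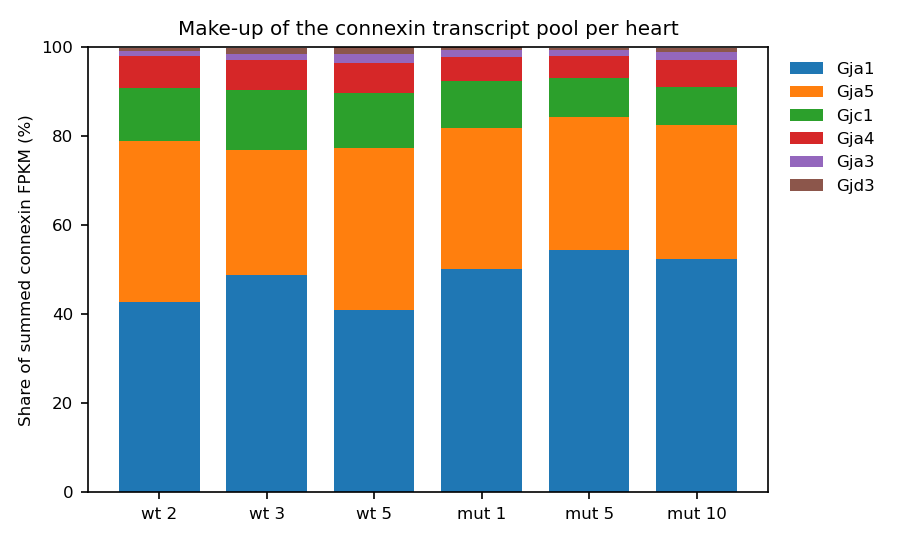
Share of the summed connexin FPKM in each heart (percent), stacked for the 6 members with visible shares. The Gja1 share is 41.0% to 48.9% in wild type hearts and 50.2% to 54.5% in mutant hearts, and the Gjc1 share is lower in the mutant hearts.

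The remaining connexins and the related pannexins were mostly close to absent. Of 14 such genes, 3 passed the filter, 2 with a higher and 1 with a lower estimate, and none had an adjusted p under 0.05 by edgeR. Gjb5, a connexin of skin and placenta, had 8, 13 and 16 counts in wild type hearts 2, 3 and 5 and 32, 57 and 71 counts in mutant hearts 1, 5 and 10. The groups did not overlap, and the log2 fold change was 2.10 (SE 0.48, edgeR adjusted p = 0.403, DESeq2 adjusted p = 0.0199). Gja4, which lies near it on chromosome 4, differed little, as given above.

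Gjb1, a connexin of hepatocytes and Schwann cells, had 133 counts in wild type heart 3 and between 0 and 3 in the others. Gjb6, a glial and inner ear connexin, had 20 counts in that heart and 3 or fewer elsewhere. Gjd4, a connexin of skeletal muscle precursors, had 6, 34 and 6 counts against 31, 4 and 3 counts. Gja6 had 2, 3 and 0 counts against 7, 2 and 0 counts. These 4 genes overlapped between the groups, and Gja10 and Gje1 were at 0 in all hearts.

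Proteins that anchor, modify or share the disc with connexins formed a list of 25 genes, all tested. Their median log2 fold change was 0.15, with 19 higher and 6 lower, where 49.8% of all genes tested had a higher estimate. None passed the adjusted threshold by edgeR or DESeq2. Wild type heart 5 was low for several of them and high for others. Dsp read 460, 429 and 176 CPM in wild type hearts 2, 3 and 5 and 405, 474 and 454 CPM in mutant hearts 1, 5 and 10. Cav3 read 65.4, 73.6 and 103 CPM against 106, 85.3 and 121 CPM in the same order. By an unadjusted p under 0.05, edgeR gave 1 gene of the 25, beside 5.73% of all genes. The gene was Ctnna3, an alpha catenin of the intercalated disc, at 20.7, 20.7 and 15.8 CPM in wild type hearts 2, 3 and 5 and 24, 24.2 and 27 CPM in mutant hearts 1, 5 and 10 (log2 fold change 0.39, SE 0.13, edgeR adjusted p = 0.733).

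Transcription factors known to act on cardiac connexin genes, with the receptor Notch1, formed a list of 16, all tested. Of these, 8 were higher and 8 lower, with a median of -0.02. None passed the adjusted threshold by edgeR, DESeq2 gave 1, and edgeR gave an unadjusted p under 0.05 to 2 with higher and 5 with lower estimates. Over all genes the shares were 0.69% by DESeq2, and 3.14% and 2.59% by the unadjusted p for higher and lower estimates. The gene with the smallest p was Shox2, a homeobox factor of the sinus node. It read 35.5, 38.3 and 41.2 CPM in wild type hearts 2, 3 and 5 and 20.2, 16.6 and 19.8 CPM in mutant hearts 1, 5 and 10, with no overlap (log2 fold change -1.02, SE 0.12, edgeR adjusted p = 0.0991, DESeq2 adjusted p = 2.05e-09).

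The other 6 genes with an unadjusted p under 0.05 were named after their values were seen. Tbx2 and Tbx3, T-box repressors known to hold back Gja1 and Gja5 in slowly conducting muscle, had log2 fold changes of -0.65 (SE 0.19) and -0.53 (SE 0.16). Isl1, a factor of the second heart field and sinus node, had -0.66 (SE 0.21), and Hey1, a Notch target, had -0.45 (SE 0.16). The homeobox factors Irx3, a regulator of Gja1 and Gja5 in the fast conduction system, and Irx5 had 0.27 (SE 0.11) and 0.31 (SE 0.09). Of these 6, all but Hey1 had groups that did not overlap, beside 11.2% of all genes, a count that follows in part from their choice by p. The summed FPKM of 8 sinus node and conduction markers, a list that shares Shox2, Tbx3 and Isl1 with the regulators, was 65.1 to 74.9 in the wild type and 50.1 to 56.3 in the mutant. Without Shox2 the sums overlapped, at 41.7 to 53.5 against 39.4 to 44.5.

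**Figure D4:**
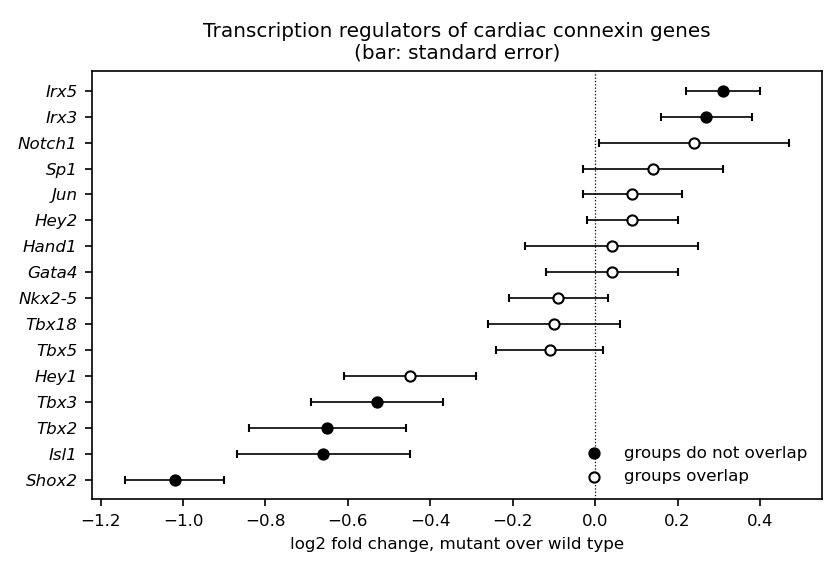
Log2 fold changes (mutant over wild type) of 16 transcription regulators of cardiac connexin genes, with standard errors, filled where the groups did not overlap. Shox2, at -1.02, lies farthest from 0, followed by Isl1, Tbx2 and Tbx3, while Irx5 and Irx3 are the highest.

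Genes whose levels followed a connexin most closely were listed by Pearson's r of log2 CPM over the 6 hearts, as a description in which the difference between groups and the libraries are shared. For Gjd2 these were Mir8091 (r = 0.992), Alox12 (0.990), Mpeg1 (0.989), Slc6a17 (0.987) and Pyhin1 (0.985), and 67 genes exceeded 0.95. For Gja1 they were Plek (r = 0.999), Dhx40 (0.997), Blnk (0.995), Ifnlr1 (0.994) and Clu (0.994), and 113 genes exceeded 0.95.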

How the data were processed

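RNA was measured in 6 whole hearts, 3 mutant and 3 wild type, grouped by the deposited labels. Per the study's methods, reads were trimmed, aligned with STAR and, where uniquely mapped, counted per gene with featureCounts by the authors, while the deposited labels name HTSeq. The deposited counts are whole reads per gene with no normalization. The deposited FPKM values equal counts scaled by 1 length per gene and by each heart's total. A further table of the authors' group means was not used.

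Counts were scaled by TMM and tested with edgeR 4.0.16 in R 4.3.3 (quasi-likelihood, two-sided, no covariates, filterByExpr with its minimum count at 10 and its minimum total at 15, Benjamini-Hochberg adjustment over the 17473 genes kept, threshold 0.05). CPM values are scaled by TMM. Shares and levels between genes used FPKM. Alternatives were DESeq2 1.42.0, limma 3.58.1 (voom, and trend on log2 FPKM with a pseudocount of 1 or 0.1), other size factors and filters, a removed gene length trend and each heart left out. DESeq2 with each heart left out and the exon lengths were added after the data were seen. The labels do not say whether the embryos shared a litter, so p-values measure the spread between these hearts. Total counts were 44244665 to 56373393, and 3 counts corresponded to 0.0522 to 0.0682 CPM per heart. Reads carried no molecular identifiers, so limits cover counting error only.

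The members and lists were chosen with earlier results of these data known. Named are the 9 members, other connexins with at least 10 counts (some are not reported here), the listed gene with the smallest p, the neighbours of Gjd2 and Gja1, the 5 genes most correlated with each, and Wt1. Myh7, Gap43, Prph, Calca, Col1a1, Col1a2, Col3a1, Tcf21, Pam, Dsp and Cav3 were named after their values were seen. Promoters came from RefSeq (GRCm38.p6), where 7 members had 8 entries. Positions came from GENCODE M21 (GRCm38).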

Additional observations from a re-analysis of the deposited data

How the results depend on the processing

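Directions of the log2 fold changes held for Gja1, Gja3, Gja4, Gja5, Gjd2 and Gjd3 under the 21 alternatives run, while Gjc1 lay between -0.06 and 0.02. The median of the 7 members stayed between 0.16 and 0.41, the limits being reached without wild type replicates 3 and 2. Gjd2 was the member whose estimate moved beyond its spread, in 4 alternatives: 0.34 and 1.73 on log2 FPKM with a pseudocount of 1 and 0.1, and 6.11 (edgeR) and 6.42 (DESeq2) without wild type replicate 3. The cause was not tested.

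The number of genes called over the whole table was 0 by edgeR, 133 by DESeq2, 34 with no filter on low counts and 6 with the gene length trend removed, and 0 to 44 with each heart left out, the 44 being without wild type replicate 5. Members called numbered 0 by edgeR and 2 by DESeq2, and DESeq2 gave 0 to 3 with each heart left out: leaving out mutant replicate 5 gave 0, mutant replicate 10 gave 1 (Gjd2), and wild type replicate 5 gave 3. Regulators called numbered 0 by edgeR and 1 by DESeq2, with no filter or with the length trend removed, and 0 to 1 with each heart left out, the 1 being without wild type replicate 5. Of the other connexins, DESeq2 called 1. No alternative called a partner gene. The difference in the Gja1 share of the pool was 6.47 to 10.4 points with each heart left out, 7.64 points in CPM, 8.12 points with all connexins and 7.85 points with exon lengths. No paired analysis was possible because the labels record no pairing of hearts, and the replicate number 5 in both groups is not a stated match. Counts below about 10 limit Gjb2, Gjc3 and the wild type level of Gjd2.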
